A study of Mus musculus with 6 samples.

Results

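C/D box snoRNA genes were examined in freshly isolated muscle stem cells (MuSCs) of control, mdx and Sirt6mKO/mdx mice. The members were the genes of biotype snoRNA whose symbol starts with Snord and whose mean over the libraries was 5 or more. Of 48 such genes 46 were kept, out of 432 snoRNA genes and 22706 genes in all. The kept genes with the lowest means were Snord98, with a mean of 22.2, and Snord90, with 85.7. Both genes left out, Snord107 with a mean of 0 and Snord64 with 1.33, are known from the imprinted Snrpn region.

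The 6 RNA-seq libraries came in 3 groups of 2. Control libraries came from wild-type mice. The mdx libraries came from mice with a mutated dystrophin gene, the usual mouse model of Duchenne muscular dystrophy. Sirt6mKO/mdx mice carried in addition floxed exons of Sirt6, removed in MuSCs by a Cre placed in the Pax7 locus. Sirt6 encodes a deacetylase of histone H3. The strain was labelled C57BL/6 for all libraries, whereas the methods name C57BL/10ScSn-Dmdmdx/J for the mdx stock. The labels give neither age nor sex, and the study describes males a few months old for its figures with RNA-seq of these groups. The methods name 2 biological replicates per group. The p-values below rest on these few libraries and largely on a spread that the fit shares between genes of similar mean value.

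A C/D box snoRNA is a short nucleolar RNA that is named after its conserved C and D boxes. Bound by the methyltransferase fibrillarin (Fbl) with Nop56, Nop58 and Snu13, it pairs with a target RNA and directs 2′-O-methylation there, mostly in ribosomal RNA (rRNA). A few members, U8 (Snord118) and U13 (Snord13) among them, take part in pre-rRNA processing. Most mammalian snoRNAs are cut from introns of host genes, many of which encode ribosomal proteins or ribosome assembly factors.

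The members lay on 16 chromosomes and were 64 to 238 bases long, with a median of 82.5 bases. The following sequences, from the GENCODE M21 transcripts on GRCm38 and read 5′ to 3′, are shown for the member with the largest fold changes against control (Snord123), for the member that fell most in mdx (Snord23), for Snord66, and for members that share a host gene. Capitals mark a C box, written here as NTGATGA within the first 25 bases, and a D box, CTGA within the last 25 bases.
Snord123: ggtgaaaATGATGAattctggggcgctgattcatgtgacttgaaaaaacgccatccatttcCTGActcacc
Snord23: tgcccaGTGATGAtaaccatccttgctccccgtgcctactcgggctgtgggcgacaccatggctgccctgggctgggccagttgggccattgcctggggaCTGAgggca
Snord66: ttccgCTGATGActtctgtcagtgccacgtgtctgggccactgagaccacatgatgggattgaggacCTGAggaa
Snord11: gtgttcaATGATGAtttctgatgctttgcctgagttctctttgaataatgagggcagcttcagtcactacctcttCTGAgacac
Snord70: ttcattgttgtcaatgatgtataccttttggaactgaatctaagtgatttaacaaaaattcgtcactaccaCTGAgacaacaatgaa
Snord49a: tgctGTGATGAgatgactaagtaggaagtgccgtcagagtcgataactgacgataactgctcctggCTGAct
Snord49b: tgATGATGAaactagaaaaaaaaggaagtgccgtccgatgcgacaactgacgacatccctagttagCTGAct
Snord65: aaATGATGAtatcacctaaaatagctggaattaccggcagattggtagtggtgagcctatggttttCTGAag
Snord88a: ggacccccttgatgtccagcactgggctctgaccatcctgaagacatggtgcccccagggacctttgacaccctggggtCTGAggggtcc
Snord88c: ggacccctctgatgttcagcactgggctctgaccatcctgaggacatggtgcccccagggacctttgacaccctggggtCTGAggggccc
Snord123 lies at chr15:32241853-32241923 on the minus strand, Snord23 at chr7:15938762-15938870 on the minus strand and Snord66 at chr16:20684239-20684313 on the plus strand. Snord11 (chr1:59704790-59704873) and Snord70 (chr1:59691934-59692020) lie on the plus strand in different introns of Nop58, which encodes a core protein of the C/D particle. Snord49b (chr11:62603079-62603150), Snord49a (chr11:62603450-62603521) and Snord65 (chr11:62604515-62604586) follow each other on the plus strand in the noncoding gene 2410006H16Rik. Snord49a and Snord49b were 70.8% identical over their length and Snord88a and Snord88c 94.4%, so reads of the latter pair could not all be told apart.

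The letters of the boxes were searched on the transcribed strand, and were more frequent in the members than in Snora genes, while many other annotated snoRNA genes carry them too. The D box CTGA stood in the last 25 bases of 45 of 46 members (97.8%), against 14.3% of 42 annotated Snora genes and 56.5% of 1558 annotated snoRNA and scaRNA genes. The exception was Snord53. The C box NTGATGA stood in the first 25 bases of 27 members, and its core TGATG, which overlaps it, in 39 (84.8%), against 0 of 42 Snora genes and 25.03% of all 1558. In Snord70 and in the Snord88 pair shown above only the core was present.

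Values are the deposited normalised read counts, and levels of different genes are compared per 100 bases of annotated length. Each library held about 4397632 to 9745218 reads by the size factors recovered from the table, and the members took 4.70% to 10.7% of a library's summed values. Per length the levels spanned a 3183-fold range, from Snord98 to Snord55. The 5 members with the highest mean values, not corrected for length, were Snord55, Snord83b, Snord110, Snord17 and Snord104, which together held 45.3% to 71.1% of the members' sum in each library. The members' sum was 455417 and 321236 in the control, 440793 and 263852 in the mdx and 1029670 and 948307 in the Sirt6mKO/mdx libraries. Both libraries labelled Sirt6mKO/mdx thus lay above the other 4, which overlapped. In bulk RNA, fewer cells that carry a snoRNA and less of it per cell cannot be told apart.

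**Figure D1:**
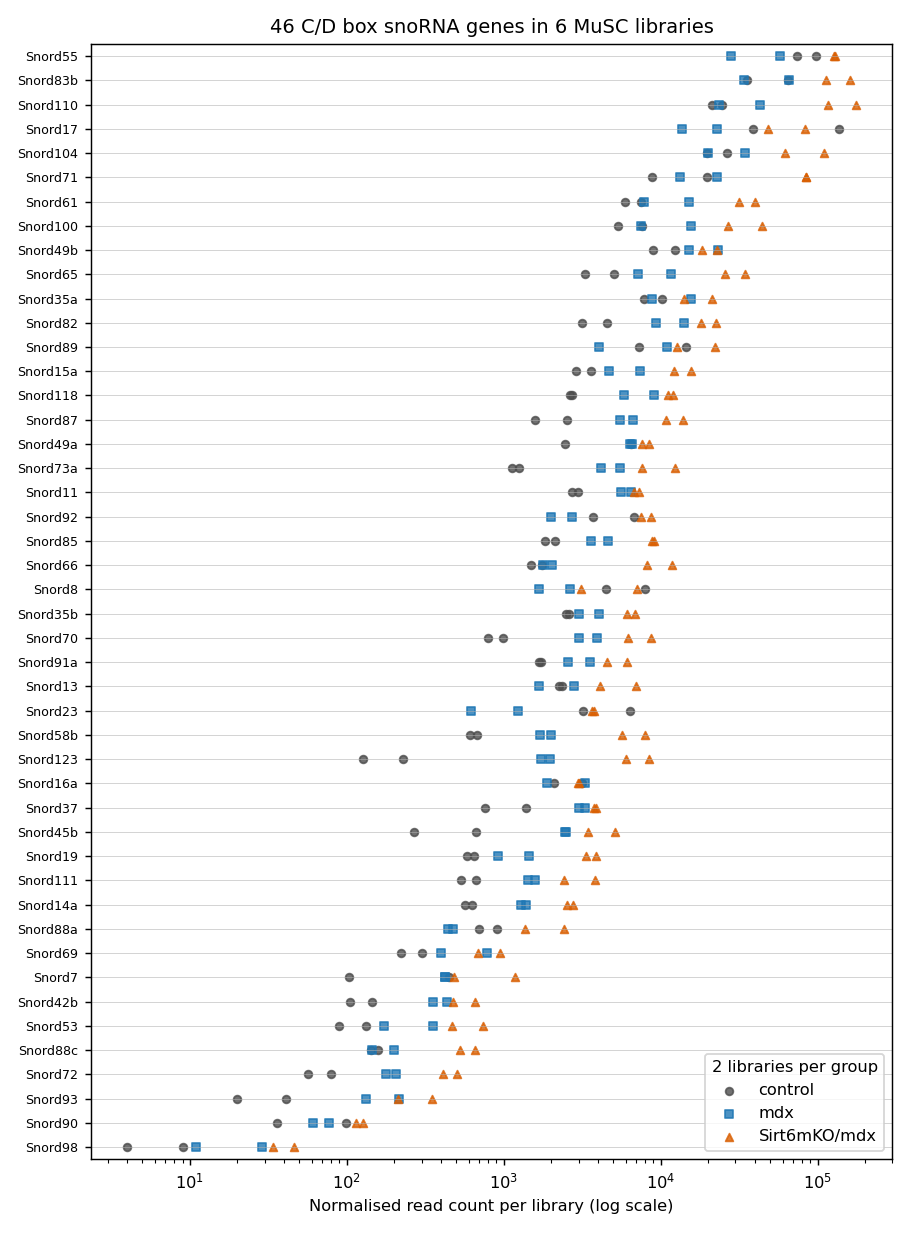
Normalised read counts of the 46 C/D box snoRNA genes (rows, ordered by mean) in each library on a log axis. Each symbol is 1 library, grey circles for control, blue squares for mdx and orange triangles for Sirt6mKO/mdx. In 37 rows both orange triangles lie to the right of the other 4 symbols, an order that 11.6% of all genes tested had.

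Some features of the libraries bear on the comparisons. Sirt6 itself stood at 41 and 32 (control), 33 and 40 (mdx) and 37 and 30 (labelled Sirt6mKO/mdx), so its total did not check the label of a deletion that spares part of the gene. Xist was at 12950 or more in both control libraries and at 34 or less in the other 4, while the Y-linked Ddx3y was at 3 and 8 in control and at 1024 or more elsewhere. The values of both control libraries thus go against the males that the study describes. In comparisons with control the sex of the mice and the genotype therefore cannot be told apart, and Snord61 was the 1 member on the X chromosome. Pax7, the defining gene of MuSCs, was at 2167 to 3236 in every library. The 8 MuSC markers summed to 19686 to 27521 per library, and 1 of them, Sdc4, was called lower in mdx than in control (log2 fold change -2.69) and higher in Sirt6mKO/mdx than in mdx (1.38). The 4 endothelial markers summed to 236 and 121 (control), 28 and 53 (mdx) and 105 and 153 (Sirt6mKO/mdx), with Pecam1 and Kdr called lower in mdx than in control. The 3 leukocyte markers summed to 104 and 115, 44 and 50, and 138 and 90, with Cd68 called lower in mdx than in control. Smooth muscle and pericyte markers summed to 263 or less, Schwann cell markers to 47 or less and erythroid markers to 77 or less, with the erythroid gene Hbb-bs called higher in Sirt6mKO/mdx than in mdx. The 4 fibro-adipogenic markers summed to 3077 to 5865, with Ly6a called higher in mdx than in control. The 4 myofibre markers summed to 4444 and 5404 in the control, 2436 and 808 in the mdx and 5733 and 2735 in the Sirt6mKO/mdx libraries, with 3 of 4 called lower in mdx than in control and 2 called higher in Sirt6mKO/mdx than in mdx. The part of these markers in the snoRNA results was not tested.

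Each comparison was made with limma on log2(value + 1) over 15915 genes, and a gene was called where its Benjamini-Hochberg adjusted p was at most 0.05 and its log2 fold change at least 1 in either direction. All fold changes below are on that scale, with the standard error (SE) of the fit to all 6 libraries. The first and last comparisons share the control libraries, the first and the second share the mdx libraries, and the second and last share the Sirt6mKO/mdx libraries, so they are not independent.

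The first question was how C/D box snoRNAs differed between MuSCs of mdx and of control mice. Of 46 members 18 were called higher in mdx (39.1%), against 6.89% of all genes, and 3 were called lower (6.52%), against 7.34%. The median log2 fold change was 0.86 over the members and 0.00 over all genes. In 27 members both mdx libraries lay above both control libraries, against 28.7% of all genes, and in 6 they lay below, against 28.3%. The members called higher included Snord123, Snord45b, Snord93, Snord73a and Snord70, and those called lower were Snord23, Snord8 and Snord92. The count of 18 was 11 without control replicate 1 or without mdx replicate 1, and that of 3 was 1, Snord23, without control replicate 1 or either mdx library. The 11 members called whichever library was left out were Snord123, Snord14a, Snord23, Snord37, Snord42b, Snord45b, Snord58b, Snord70, Snord72, Snord73a and Snord93.

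Snord123 showed the largest fold change between mdx and control. It stood at 127 and 227 in the control, 1721 and 1972 in the mdx and 6037 and 8476 in the Sirt6mKO/mdx libraries, with no overlap between any groups. Its log2 fold change between mdx and control was 3.43 (SE 0.30, limma adjusted p = 2.45e-06). Its host, the noncoding gene 0610007N19Rik, stood at 6 and 12 in the control, 94 and 110 in the mdx and 50 and 54 in the Sirt6mKO/mdx libraries. This host was likewise called higher in mdx than in control, with a log2 fold change of 3.43.

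Guides for methylation of small-subunit rRNA made up 14 of the members, and 7 of them were called higher in mdx, with none lower, against 6.89% and 7.34% of all genes. Snord45b rose from 269 and 669 in control to 2450 and 2493 in mdx, so the log2 fold change was 2.54 (SE 0.36, limma adjusted p = 0.000231). Snord93 rose from 41 and 20 to 133 and 215 (log2 fold change 2.52), although it is over 90% identical to another annotated RNA, Mir3096, and reads that match both were left out. Snord70 rose from 994 and 799 to 3917 and 3021 (log2 fold change 1.95, SE 0.30, limma adjusted p = 0.000454). Snord82, Snord11, Snord14a and Snord42b were the others called higher, with log2 fold changes of 1.60, 1.08, 1.16 and 1.67.

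Guides for large-subunit rRNA made up 17 members, of which 6 were called higher and none lower, beside the same shares of all genes. Snord73a stood at 1137 and 1245 in control MuSCs against 5537 and 4200 in mdx MuSCs, a log2 fold change of 2.02 (SE 0.33). Snord58b, which like Snord93 has an annotated near copy (Gm22354), stood at 607 and 681 against 1994 and 1700 (1.52), and Snord37, Snord87, Snord111 and Snord69 had log2 fold changes of 1.62, 1.60, 1.33 and 1.12. The calls of Snord87, Snord111 and Snord69 were lost without control replicate 1. The guides with the highest mean values, Snord55, Snord17 and Snord104, were not called. Snord55 stood at 74197 and 97612 in control MuSCs against 58061 and 28264 in mdx MuSCs, and Snord17 at 137302 and 38757 against 22798 and 13636. Both had lower values in both mdx libraries, but their SEs were 1.02 and 0.85 against log2 fold changes of -1.07 and -2.05. The fit sets these SEs largely by mean value. Within groups the standard deviation of log2 values was 0.45 for Snord55 and 0.87 for Snord17, and 0.58 for Snord45b, which was called.

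Of the members called lower in mdx, 1 has a target assigned here. Snord23, which has none, fell from 6355 and 3181 in control to 1239 and 617 in mdx, and stood at 3642 and 3772 in Sirt6mKO/mdx libraries. Its log2 fold change between mdx and control was -2.36 (SE 0.37, limma adjusted p = 0.000531). Snord8, which guides methylation of the spliceosomal U6 snRNA, fell from 7953 and 4462 to 2639 and 1679 (-1.50), while the other U6 guide, Snord7, stood at 103 and 446 against 426 and 425. A gene on the opposite strand, Gm26590, covers Snord8, and whether strand was used in counting was not stated. Snord92 fell from 6757 and 3708 to 2739 and 2016 (log2 fold change -1.09), with a limma adjusted p of 0.0484, close to the threshold.

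Of the RNAs for pre-rRNA processing, U8 (Snord118) was called higher in mdx and U13 (Snord13) was not. Snord118 stood at 2662 and 2717 in the control, 9044 and 5877 in the mdx and 11943 and 11194 in the Sirt6mKO/mdx libraries, with log2 fold changes of 1.44 between mdx and control and 2.10 between Sirt6mKO/mdx and control. Snord13 stood at 2239 and 2363 in control MuSCs against 2797 and 1683 in mdx MuSCs, where the groups overlapped. Snord118 has an annotated copy over 90% identical to it, Gm24208, so its value may miss reads.

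**Figure D2:**
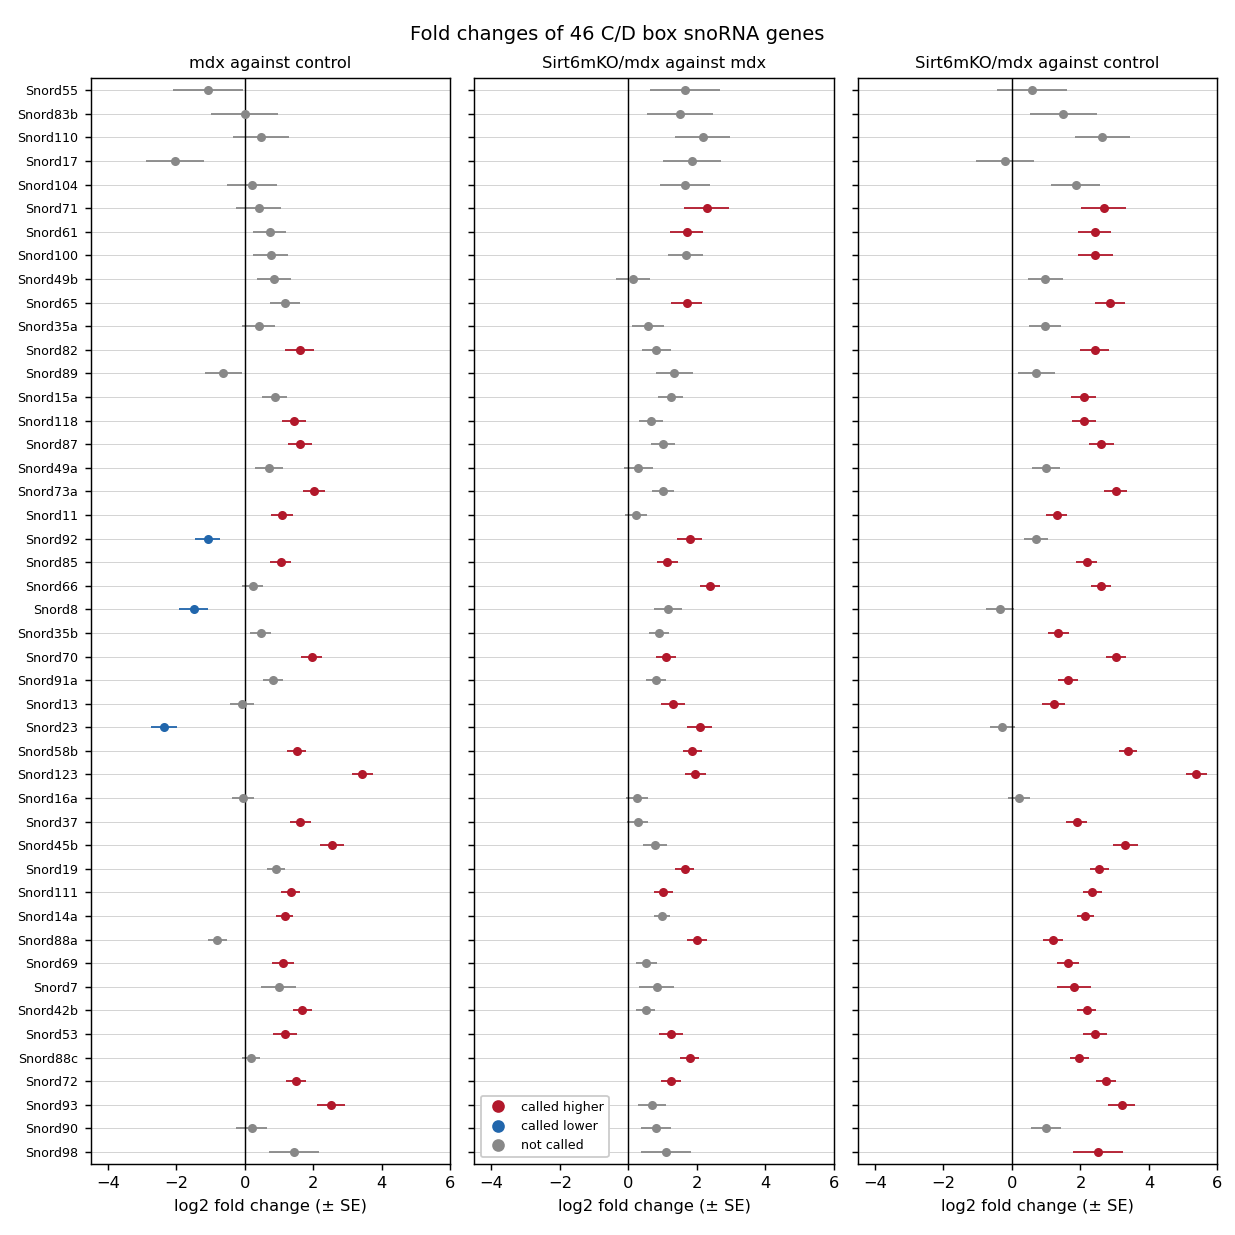
Log2 fold change (horizontal axis) of each C/D box snoRNA gene, ordered by mean value, in the 3 comparisons. Bars are the SE of the limma fit, red and blue mark genes called higher and lower, and grey those not called. Every point of the middle panel lies above 0, and the bars are widest for the 4 members with the highest mean values, at the top.

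The second question was what the Sirt6 deletion added on the mdx background. All 46 members had positive log2 fold changes between Sirt6mKO/mdx and mdx, from 0.12 for Snord49b to 2.38 for Snord66, with a median of 1.15 against 0.02 over all genes. Of these, 17 were called higher (36.96%), against 5.62% of all genes, and 0 were called lower, against 2.54%. At an unadjusted p under 0.05, 30 members were higher, against 14.1% of all genes, and 0 lower, against 11.1%. In 41 members both Sirt6mKO/mdx libraries lay above both mdx libraries, against 28.8% of all genes. The count of 17 rested on few libraries and on the scaling. It was 4 without Sirt6mKO/mdx replicate 2, 5 without Sirt6mKO/mdx replicate 1, 6 without mdx replicate 2 and 13 without mdx replicate 1, and Snord58b, Snord66 and Snord88a were the members called in all 4 cases.

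Other classes of small RNA had positive medians as well. Between Sirt6mKO/mdx and mdx the median log2 fold change was 1.44 over 23 H/ACA snoRNA genes (Snora), which guide pseudouridylation, 1.68 over 9 scaRNA genes, 2.0 over 200 snRNA genes and 1.18 over 160 miRNA genes. Called higher were 9, 8, 46 and 13 of them (39.1%, 88.9%, 23.0% and 8.12%), and none lower, against 5.62% and 2.54% of all genes, so the share of miRNA genes was near that of all genes. Of 163 snoRNA genes with a Gm symbol, 62 were called higher (38.0%) and none lower, with a median of 1.365. With the libraries centred on 663 other small RNA genes, a scaling chosen after seeing the data, the members' median became -0.32, 17 members kept a positive sign, none was called higher and 5 were called lower, while the median over all genes moved to -1.44. Those 5 were Snord11, Snord16a, Snord37, Snord49a and Snord49b. In that scaling 141 of all 15915 genes were called higher and 8694 lower. With each library scaled to the same total, 9 members were called higher and none lower, 38 had a positive sign, and the median over all genes moved to -0.58. The direction of the members' difference between Sirt6mKO/mdx and mdx thus depended on the RNAs it was measured against.

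Between mdx and control the classes were less alike. The median was 0.43 over Snora genes, 0.69 over scaRNA genes, 0.35 over snRNA genes and -0.66 over miRNA genes, against 0.86 over the C/D box members. Called higher were 5, 4, 17 and 6 of them (21.7%, 44.4%, 8.5% and 3.75%), against 6.89% of all genes. Called lower were 0, 0, 6 and 16, against 7.34%. The Gm-symbol snoRNA genes had a median of 0.46, with 36 called higher (22.1%) and 5 lower. Centred on the other small RNA genes, 16 members were called higher and 1, Snord23, lower, with a median of 1.19. In that scaling 1299 of all 15915 genes were called higher and 636 lower. These medians describe the classes, and differences between them were not tested.

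**Figure D3:**
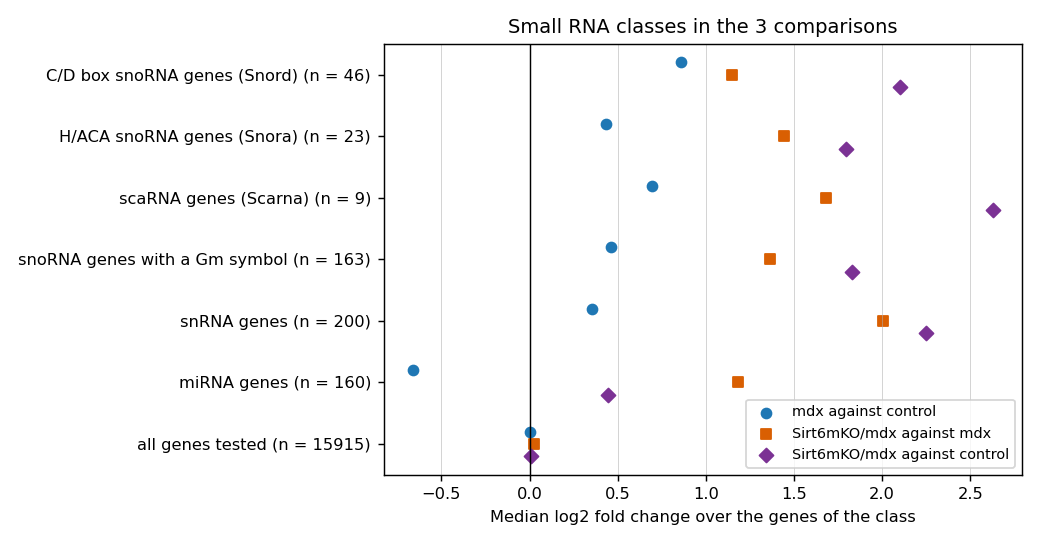
Median log2 fold change (horizontal axis) of each class of small RNA genes that passed the filter, and of all genes tested, in the 3 comparisons. Orange squares, for Sirt6mKO/mdx against mdx, lie between 1.15 and 2.0 for every small RNA class and at 0.02 for all genes, while the blue circles, for mdx against control, spread from -0.66 to 0.86.

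Among members called higher in Sirt6mKO/mdx than in mdx, Snord66, a guide for small-subunit rRNA, was almost level between control and mdx. It stood at 1746 and 1505 in the control, 2026 and 1769 in the mdx and 11883 and 8169 in the Sirt6mKO/mdx libraries. These last 2 values lay well above the other 4, and the log2 fold change between Sirt6mKO/mdx and mdx was 2.38 (SE 0.30, limma adjusted p = 0.000177). Snord71, the guide for the short rRNA of the large subunit, stood at 19770 and 8768, 22747 and 13239, and 84630 and 84160 in the same order of groups. Its log2 fold change was 2.28 (SE 0.65, limma adjusted p = 0.0411). That call was lost whichever library was left out, with log2 fold changes of 1.89 to 2.67.

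Snord88a and Snord88c, large-subunit guides from 1 host, were both called higher in Sirt6mKO/mdx than in mdx. Their sequences are so alike that reads matching both were left out, so their values may be low. Snord88a stood at 473 and 442 in mdx MuSCs against 2434 and 1368 in Sirt6mKO/mdx MuSCs, with a log2 fold change of 1.99. Snord88c stood at 145 and 201 against 659 and 529, with a log2 fold change of 1.78. Snord23 and Snord92, which were lower in mdx than in control, were called higher in Sirt6mKO/mdx than in mdx, with log2 fold changes of 2.08 and 1.79. Their values in Sirt6mKO/mdx were not called different from control (-0.28 and 0.70).

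By role, 4 of 14 small-subunit guides (Snord61, Snord65, Snord66 and Snord70) and 4 of 17 large-subunit guides (Snord58b, Snord88a, Snord88c and Snord111) were called higher in Sirt6mKO/mdx than in mdx, against 5.62% of all genes. The calls of Snord66, Snord58b and Snord88a stayed whichever library was left out, and those of Snord70 and Snord111 were lost in every such fit. None of these guides was called higher when centred on other small RNA genes. Of the processing RNAs Snord13 was called (log2 fold change 1.30) and Snord118 was not (0.67). Neither U6 guide was called. The 5 members with the highest mean values had log2 fold changes between 1.51 and 2.17, above the members' median, but SEs of 0.73 to 1.02, and none of them passed the test. These SEs too were set largely by mean value, as the standard deviations of log2 values within groups were 0.44 to 0.87. Snord110, for example, stood at 43059 and 23531 in mdx MuSCs against 116606 and 175822 in Sirt6mKO/mdx MuSCs, without overlap.

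The last comparison set Sirt6mKO/mdx against control, and 32 of 46 members were called higher (69.6%), against 5.19% of all genes, with 0 lower, against 2.68%. The median log2 fold change was 2.10, and 41 members had both Sirt6mKO/mdx libraries above both control libraries (26.3% of all genes did). At an unadjusted p under 0.05, 36 members were higher, against 13.1% of all genes, and 0 lower, against 11%. The largest values were 5.39 for Snord123 (SE 0.30, limma adjusted p = 7.14e-08), 3.39 for Snord58b, 3.31 for Snord45b, 3.20 for Snord93 and 3.04 for Snord70. The count was 18 without Sirt6mKO/mdx replicate 2 and 20 without Sirt6mKO/mdx replicate 1, and 17 members were called whichever library was left out. It was 15, with 2 lower, when the libraries were centred on other small RNA genes, and the lower ones were Snord8 and Snord23. In that scaling 273 of all 15915 genes were called higher and 6143 lower. As deposited, 9 of 9 scaRNA, 14 of 23 Snora and 89 of 163 Gm-symbol snoRNA genes were also called higher than in control. So were 61 of 200 snRNA and 16 of 160 miRNA genes, with 2 of each class called lower. In that order the median log2 fold changes were 2.63, 1.795, 1.83, 2.25 and 0.445. The rise was thus not particular to C/D box members, and differences between classes were not tested.

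Across the 3 groups, 24 members stood lowest in control, higher in mdx and highest in Sirt6mKO/mdx libraries without overlap, an order found in 3.32% of all genes, and 7 were called higher in every comparison, against 0.314% of all genes. Those 7 were Snord85, Snord70, Snord58b, Snord123, Snord111, Snord53 and Snord72. With the libraries centred on other small RNA genes, the log2 fold change between Sirt6mKO/mdx and mdx turned negative for 5 of them (Snord85 -0.34, Snord70 -0.38, Snord111 -0.46, Snord53 -0.23 and Snord72 -0.23), and Snord58b (0.40) and Snord123 (0.48) were not called. As deposited, the call between Sirt6mKO/mdx and mdx stayed for Snord58b whichever library was left out and was lost for Snord123 without Sirt6mKO/mdx replicate 2. It was lost for Snord53 in 3 of the 4 such fits, and for Snord85, Snord70, Snord111 and Snord72 in all 4. A further 11 were called higher in mdx and in Sirt6mKO/mdx than in control but not between those groups (2.38% of all genes were), with Snord118, Snord45b and Snord93 among them. Another 8 were called higher in Sirt6mKO/mdx alone, against both other groups (0.873% of all genes were), among them Snord65, Snord66 and Snord71. Centred on other small RNA genes, none of these 8 was called higher than in mdx. As deposited, that call stayed for Snord66 and Snord88a whichever library was left out. It stayed for Snord65 only without mdx replicate 1 and was lost for Snord71 in every such fit. In 6 of 46 members both mdx libraries were the lowest, a share no higher than the 15.4% of all genes, and they were Snord55, Snord17, Snord92, Snord8, Snord23 and Snord88a. No call was made in any comparison for 11 members, against 79.4% of all genes, among them Snord55, Snord83b, Snord110, Snord17 and Snord104.

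Host genes were found for 43 members, as the annotated gene that contains the snoRNA on the same strand. There were 37 hosts, of which 12 encode ribosomal proteins, and Snord104, Snord118 and Snord13 had none. The log2 fold changes of the members mostly lay above those of their hosts. Between mdx and control the median log2 fold change was 0.87 over these members and -0.08 over the hosts, and 36 of 43 members lay above their host. Between Sirt6mKO/mdx and mdx it was 1.14 and -0.21, with 38 members above their host. Of 37 hosts, 1 was called higher and 2 lower in the first comparison and 2 higher and 1 lower in the second. These host counts were near the shares of all genes, 6.89% higher and 7.34% lower in the first and 5.62% and 2.54% in the second. Between Sirt6mKO/mdx and control the medians were 2.14 over the members and -0.50 over the hosts. There 2 hosts were called higher and 4 lower, against 5.19% and 2.68% of all genes. In 3 pairs the snoRNA and its host were then called in opposite directions. Pearson's r across the 43 pairs, some of which share a host, was 0.15, -0.19 and 0.23 in the 3 comparisons.

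**Figure D4:**
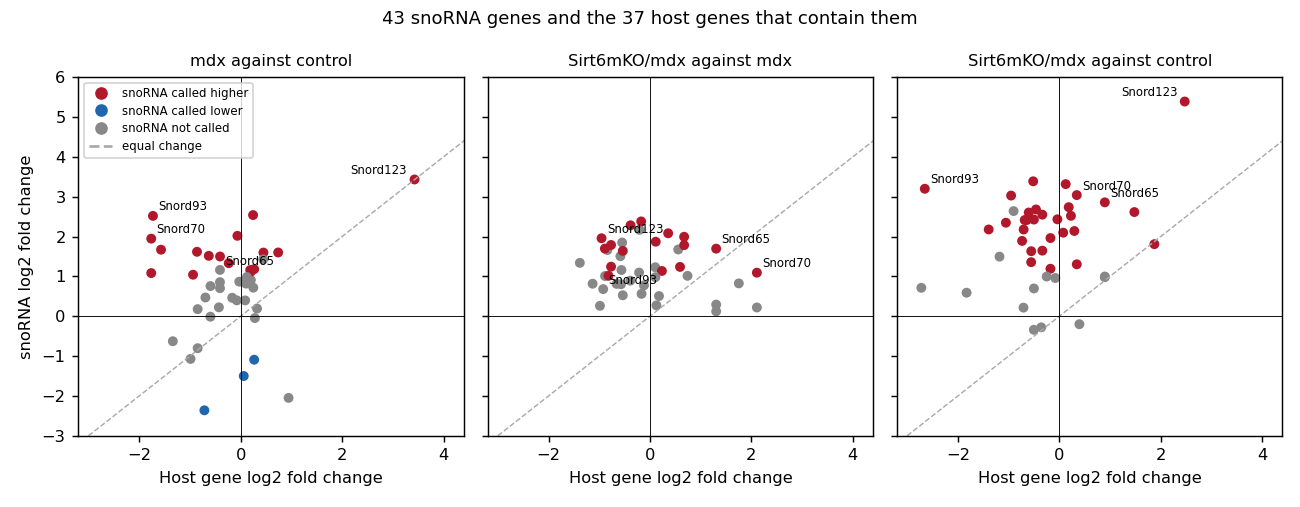
Log2 fold change of 43 snoRNA genes (vertical axis) against that of the host gene that contains each (horizontal axis) in the 3 comparisons. Each point is a snoRNA, red where called higher, blue where called lower and grey where not called, and the dashed line marks equal change. Of the 43 points 36, 38 and 41 lie above the line in the 3 panels.

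In mdx against control, 3 members were called higher while their host was called lower, Snord70 and Snord11 in Nop58 and Snord42b in Rpl23a. Nop58 stood at 2427 and 2374 in the control, 622 and 802 in the mdx and 2660 and 3494 in the Sirt6mKO/mdx libraries, and was called lower in mdx (log2 fold change -1.76) and higher in Sirt6mKO/mdx than in mdx (2.11). Snord70, from its intron, was called higher in both steps, to 6232 and 8642 in Sirt6mKO/mdx libraries, but its second call (log2 fold change 1.09, the same direction as its host) was lost whichever of the 4 libraries was left out and its value was -0.38 when centred on other small RNA genes. Snord11, from another intron of Nop58, stood at 2707 and 2983 in the control, 6450 and 5621 in the mdx and 6723 and 7318 in the Sirt6mKO/mdx libraries. It was called higher in mdx (1.08) and had a log2 fold change of 0.22 between Sirt6mKO/mdx and mdx. The call of Snord11 in mdx was lost whichever library was left out, with log2 fold changes of 0.98 to 1.18. Rpl23a, a ribosomal protein gene, stood at 372 and 307 in the control, 158 and 81 in the mdx and 119 and 138 in the Sirt6mKO/mdx libraries (log2 fold change -1.57 between mdx and control). Snord42b stood at 144 and 105, 434 and 357, and 474 and 661 in the 3 groups (1.67).

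The host with 3 members, 2410006H16Rik, stood at 548 and 370 in the control, 394 and 292 in the mdx and 788 and 895 in the Sirt6mKO/mdx libraries, and was called higher in Sirt6mKO/mdx than in mdx (log2 fold change 1.31). Its members differed in their values. Snord65 stood at 5060 and 3310, 11595 and 7231, and 34296 and 25667 in the 3 groups, and was called higher in Sirt6mKO/mdx than in mdx (1.70). Snord49b stood at 8887 and 12265, 23349 and 15277, and 18440 and 22960, with overlap between mdx and Sirt6mKO/mdx and a log2 fold change of 0.12 (SE 0.50). Snord49a likewise had a log2 fold change of 0.29 (SE 0.42).

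Other pairs from 1 host also differed. In Wdr43, Snord92 fell in mdx while Snord53 rose (log2 fold change 1.18). In Gnl3, Snord69 was called higher in mdx than in control and Snord19 was not (log2 fold change 0.91, under the fold threshold), while between Sirt6mKO/mdx and mdx Snord19 was called (1.64) and Snord69 was not (0.53). The difference between the members of a pair was not tested. Snord93 lies in the noncoding gene 2700038G22Rik, which stood at 44 and 42 in the control, 10 and 15 in the mdx and 6 and 6 in the Sirt6mKO/mdx libraries, while Snord93 rose. For 11 members an annotated exon of the host overlaps the snoRNA, wholly in 8, and reads assigned to both were left out by the counting, so their values may be low. They were Snord100, Snord66, Snord35b, Snord16a, Snord45b, Snord19, Snord111, Snord14a, Snord88a, Snord69 and Snord42b, and 5 of them were called higher in mdx, against 6.89% of all genes.

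The 12 members from ribosomal protein genes had a median log2 fold change of 0.81 between mdx and control and 1.12 between Sirt6mKO/mdx and mdx. The 23 from other protein-coding hosts had 0.82 and 1.16, and the 8 from noncoding hosts 1.07 and 0.92. Called higher in mdx were 5, 9 and 3 of them, against 6.89% of all genes, and called lower were 3 of those from other protein-coding hosts (Snord92, Snord8 and Snord23) and none of the rest, against 7.34%. Within the ribosomal protein hosts the values between mdx and control ran from -1.07 for Snord55 to 2.02 for Snord73a.

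Length and base composition went with the difference between mdx and control. The 8 members of 100 bases or longer had a median log2 fold change of -0.36, with 1 called higher and 2 lower, and the 38 shorter ones 1.01, with 17 higher and 1 lower, against 6.89% and 7.34% of all genes. Spearman's rho over the 46 members was -0.56 with length and -0.68 with GC content. Between Sirt6mKO/mdx and mdx the values were 0.02 and 0.36. All members were measured in the same libraries, so these are descriptions, and whether the selection of RNA fragments by size or composition differed between the libraries was not tested.

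**Figure D5:**
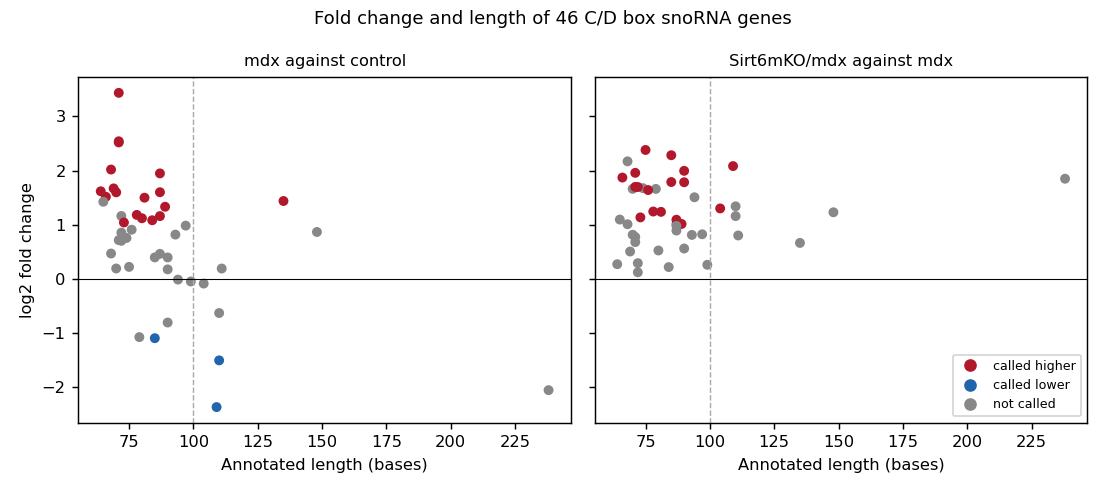
Log2 fold change (vertical axis) of the 46 C/D box snoRNA genes against annotated length in bases, for mdx against control (left) and Sirt6mKO/mdx against mdx (right). Colours mark genes called higher (red), lower (blue) or not called (grey), and the dashed line stands at 100 bases. On the left the median is 1.01 for the 38 shorter genes and -0.36 for the 8 longer ones.

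Genes for the proteins that bind or assemble C/D box snoRNAs made up another list. Of the 4 core proteins in the table, Fbl, Nop58 and Nhp2l1 (the older symbol of Snu13) were called lower in mdx than in control, against 7.34% of all genes. Fbl, the methyltransferase, stood at 207 and 296 in the control, 133 and 78 in the mdx and 80 and 110 in the Sirt6mKO/mdx libraries. Nhp2l1, which binds the boxes first, stood at 205 and 140, 45 and 36, and 98 and 138, and was called higher in Sirt6mKO/mdx than in mdx (log2 fold change 1.51), as was Nop58. Of 9 assembly factors, Rpap3 was called higher in mdx than in control (1.33), against 6.89% of all genes. Tgs1, which hypermethylates the cap of snoRNAs with their own promoter, was called lower in Sirt6mKO/mdx than in mdx (-1.26), against 2.54%. Rrp9, a protein of the U3 particle, stood at 281 and 288, 138 and 152, and 118 and 164, and was called lower in Sirt6mKO/mdx than in control (-1.03). Of 10 noncoding host genes in the list, Rian and Mirg were called lower in mdx than in control, against 7.34% of all genes. Gas5, Snhg1 and Snhg12 were called higher in Sirt6mKO/mdx than in mdx, against 5.62%.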

How the data were processed

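RNA-seq libraries were made from rRNA-depleted total RNA of sorted MuSCs (Integrin-a7 and CD34 positive, or reporter positive, after depletion of Sca1, CD45 and CD31 positive cells). According to the methods, the authors trimmed the reads, aligned them to GRCm38 with STAR, counted them per gene with featureCounts, leaving out reads on several genes or places, and normalised with DESeq2. The submitters' processing notes name STAR 2.4.2a, featureCounts 1.4.5-p1 and DESeq2 1.6.0, and the methods name other versions of STAR and DESeq2. The deposited values, treated here as a score, are read counts divided by a size factor per library and rounded. Total reads per library were estimated by recovering the factors from the steps of the values, and depth sets the precision of low genes.

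The deposited score was transformed as log2(value + 1), and genes with a mean of at least 5 were fitted with limma 3.58.1 in R 4.3.3, with a mean-variance trend, all 6 libraries in one fit and no replicate block. Benjamini-Hochberg adjustment ran over the 15915 genes tested. The deposited table gave symbols, positions and biotypes, which matched GENCODE M21 on GRCm38 for 46 of 46 members, and sequences, exons and hosts of at least 500 bases came from that release. No per-sample column was left unused.

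Named were the 10 members with the highest means, the called members with the 5 highest and 5 lowest fold changes in each comparison, members of well-known roles, and hosts with 3 or more members. Other members, the length classes and the role groups, which rest on textbook targets, were chosen after their values were seen. The members and lists were chosen with earlier results of these data known. Alternatives were other scalings, pseudocounts of 0.1 and 5, a minimum mean of 20 or none, other prior variances, the 4 libraries compared alone, a replicate block and leaving out each library.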

Additional observations from a re-analysis of the deposited data

How the results depend on the processing

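With 2 libraries per group the calls depend on how the spread is shared between genes. With no minimum mean 11 members were called higher and 1 lower in mdx than in control, 3 higher in Sirt6mKO/mdx than in mdx and 18 higher than in control. In the same order 417, 572, 154 and 169 of all 22489 genes were called. With one prior variance in place of the trend the member counts were 2, 0, 0 and 5, against 181, 360, 0 and 65 of all 15915 genes. No gene at all was then called higher in Sirt6mKO/mdx than in mdx. Snord123 and Snord70 were the members called in mdx. With equal totals 9 were called higher in Sirt6mKO/mdx than in mdx, and the medians were 0.52 against mdx and 1.495 against control. Centred on other small RNA genes (chosen after seeing the data), mdx against control gave 1 lower and a median of 1.19, Sirt6mKO/mdx against mdx 0 higher, 5 lower and -0.32, and Sirt6mKO/mdx against control 15 higher, 2 lower and 0.95. Of all 15915 genes, 636, 8694 and 6143 were then called lower in the 3 comparisons, and 1299, 141 and 273 higher. Beyond the construction of each alternative, the cause was not tested.

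Leaving out 1 library at a time gave 11 to 17 members higher, 1 to 3 lower and a median of 0.59 to 1.08 in mdx against control. The lowest count came without control replicate 1 or mdx replicate 1. Between Sirt6mKO/mdx and mdx it gave 4 to 13 higher and a median of 0.94 to 1.38, and against control 18 to 29 higher. Calls that stayed whichever library was left out numbered 11, 3 and 17 in the 3 comparisons. A library left alone in its group is assumed to vary like the others. The sign of an uncalled log2 fold change turned for Snord83b (-0.48 to 0.46), Snord104 (-0.20 to 0.59), Snord71 (-0.19 to 0.98), Snord35a (-0.012 to 0.81), Snord89 (-1.34 to 0.090), Snord13 (-0.45 to 0.28), Snord16a (-0.44 to 0.35), Snord7 (-0.068 to 2.04), Snord88c (-0.056 to 0.41) and Snord90 (-0.52 to 0.91) in mdx against control. It turned for Snord49b (-0.18 to 0.43), Snord16a (-0.13 to 0.66), Fbl (-0.50 to 0.26) and Nop56 (-0.48 to 0.064) in Sirt6mKO/mdx against mdx, and for Snord17 (-1.11 to 0.71), Snord8 (-0.93 to 0.25), Snord23 (-0.78 to 0.22) and Snord16a (-0.075 to 0.51) against control.

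With equal totals the sign turned for 12 uncalled values. These were Snord83b (0.012) in mdx against control, Snord49b (-0.50), Snord35a (-0.0656), Snord49a (-0.34), Snord11 (-0.41), Snord16a (-0.37), Snord37 (-0.35), Snord69 (-0.10) and Snord42b (-0.12) in Sirt6mKO/mdx against mdx, and Snord55 (-0.015), Snord16a (-0.39) and Nop58 (-0.26) in Sirt6mKO/mdx against control. The share of higher calls among all genes also moved, from 895 higher and 405 lower to 479 and 2932 in Sirt6mKO/mdx against mdx, and from 826 and 427 to 455 and 2693 against control.

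The replicate numbers did not pair the libraries, since the correlations of their deviations were -0.13, 0.12 and 0.01. With the replicate number as a block, the calls were 18 higher and 3 lower in mdx against control, 21 higher in Sirt6mKO/mdx against mdx and 33 higher against control, with unchanged medians of 0.86, 1.15 and 2.10. Other pseudocounts, an upper-quartile scaling, a minimum mean of 20, a robust prior and the 4 libraries alone turned no sign. Snord98 (4 to 46 per library) and Snord93 in control (41 and 20) rest on few reads.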
